A study of Mus musculus with 6 samples.

Results

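The anterior pituitary makes peptide hormones, and 9 genes of that gland are described here in RNA from the hypothalamus: Gh (growth hormone), Prl (prolactin), Cga (the alpha subunit shared by the glycoprotein hormones), Tshb, Lhb and Fshb (the beta subunits of thyrotropin, luteinising hormone and follicle-stimulating hormone), and the transcription factors Pou1f1, Pitx1 and Tbx19. They were chosen by name, selected on their levels on these same arrays, which were seen to vary between single dissections. Their values are therefore a description and carry no test. The array annotation gave 13 probe sets with a single gene symbol to 8 of the 9 genes, out of 45037 probe sets for 18193 genes in all. Pou1f1 had no such probe set and was not analysed here.

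Arrays of the Affymetrix Mouse Genome 430 2.0 type were read from 3 POMCDicerKO samples and 3 control samples, labelled as arcuate dissections of the hypothalamus. POMCDicerKO mice lack Dicer, the enzyme that cuts microRNA precursors, in cells that express Pomc, the precursor of melanocortins and adrenocorticotropin. All mice were 2 weeks old, of mixed strain (C57Bl/6J, FVB/N and 129), and fed standard chow. The promoter that drove the deletion, the control genotype beyond the label Ctrl, and whether a sample held 1 animal or several are not stated in the labels. The arcuate markers Npy, between 10.38 and 12.32, and Tac2, between 8.92 and 9.18, lay far above the median of all values, 6.03. Another arcuate marker, Slc6a3, lay nearer to it, between 6.19 and 6.78. Oxt, a marker of neighbouring nuclei, read between 10.16 and 11.81, so high levels were not particular to arcuate markers. Deposited values are on the log2 scale, so that a step of 1 is a factor of 2.

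In the gland, POU1F1 switches on Gh, Prl and Tshb in the cells that make growth hormone, prolactin and thyrotropin. PITX1 acts in most pituitary lineages, and TBX19 drives Pomc transcription in corticotrophs and melanotrophs. The hypothalamus controls these cells through hormones released at the median eminence, next to the arcuate nucleus, and the pars tuberalis, a sheet of pituitary cells that makes Cga and Tshb, wraps that surface.

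Start-site sequences are shown for Prl, Cga and Tshb, 3 of the hormone genes that the RefSeq promoter table (GRCm38.p6) held. Each has 250 bases before the start and 50 after it, 5′ to 3′ on the gene's strand. They lie at chr13:27057320-27057619 (plus strand, Prl), chr4:34893529-34893828 (plus strand, Cga) and chr3:102782665-102782964 (minus strand, Tshb). Capitals mark matches, on either strand, to TATNCAT (the POU1F1 motif), TATAAA (the TATA box) and AAGGNCA (the motif of NR5A1, a factor of gonadotrophs). Overlapping matches, such as those on both strands in TTTATAAA, were kept.
Prl: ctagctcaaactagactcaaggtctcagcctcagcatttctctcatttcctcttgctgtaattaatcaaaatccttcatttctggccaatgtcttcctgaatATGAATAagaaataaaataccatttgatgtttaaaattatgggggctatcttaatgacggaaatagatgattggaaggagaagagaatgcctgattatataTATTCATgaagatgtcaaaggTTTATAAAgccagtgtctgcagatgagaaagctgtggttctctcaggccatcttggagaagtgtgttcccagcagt
Cga: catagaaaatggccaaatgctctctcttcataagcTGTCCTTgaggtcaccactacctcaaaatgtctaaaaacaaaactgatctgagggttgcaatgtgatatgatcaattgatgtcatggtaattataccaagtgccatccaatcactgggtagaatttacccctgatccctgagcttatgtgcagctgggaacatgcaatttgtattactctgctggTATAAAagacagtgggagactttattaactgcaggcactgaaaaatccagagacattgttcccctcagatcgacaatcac
Tshb: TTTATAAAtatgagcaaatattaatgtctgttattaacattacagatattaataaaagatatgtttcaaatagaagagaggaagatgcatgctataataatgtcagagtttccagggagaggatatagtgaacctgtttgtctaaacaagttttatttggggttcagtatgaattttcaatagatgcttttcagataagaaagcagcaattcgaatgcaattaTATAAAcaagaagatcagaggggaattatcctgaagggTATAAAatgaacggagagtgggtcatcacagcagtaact

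TATAAA was found in the windows of all 5 hormone genes in the table (Prl, Cga, Tshb, Lhb and Fshb), against 13.6% of 32851 windows of the same length. TATNCAT was found in 1 of the 5, Prl, with 2 matches, against 8.84% of all windows. AAGGNCA was found in 2, Cga and Lhb, against 20.3%. The motifs TAATCC (bicoid-type, bound by PITX factors) and TGACGTCA (the cyclic AMP response element) were found in 0 of the 5, against 7.06% and 1.79%. A match describes letters in these windows and is not a measured binding site.

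Gh and Cga were among the most variable transcripts on the arrays, and in different samples. Gh was high on POMCDicerKO arrays 1 and 3 and near the control level on POMCDicerKO array 2. Cga was highest on controls 1 and 2 and lowest on POMCDicerKO array 2. The range between the lowest and the highest array was 4.86 for Gh 1456595_x_at (29.1-fold) and 4.79 for Cga 1418549_at (27.6-fold), which ranked 2 and 3 among all probe sets. The other Gh probe sets ranked 4, 7 and 20. A range of at least 1 was reached by 6 of the 13 probe sets (4 of Gh, 1 of Cga, 1 of Tshb), against 1.34% of all probe sets, and nothing is read from that count because the members were chosen by these values. The nearest to that limit were Tshb at 1.09 inside it and Prl at 0.59 outside it. The median range was 0.59 for the 13 member probe sets and 0.28 for all probe sets. A lower value in such bulk tissue may mean fewer cells of a type or less RNA per cell, which cannot be told apart.

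**Figure D1:**
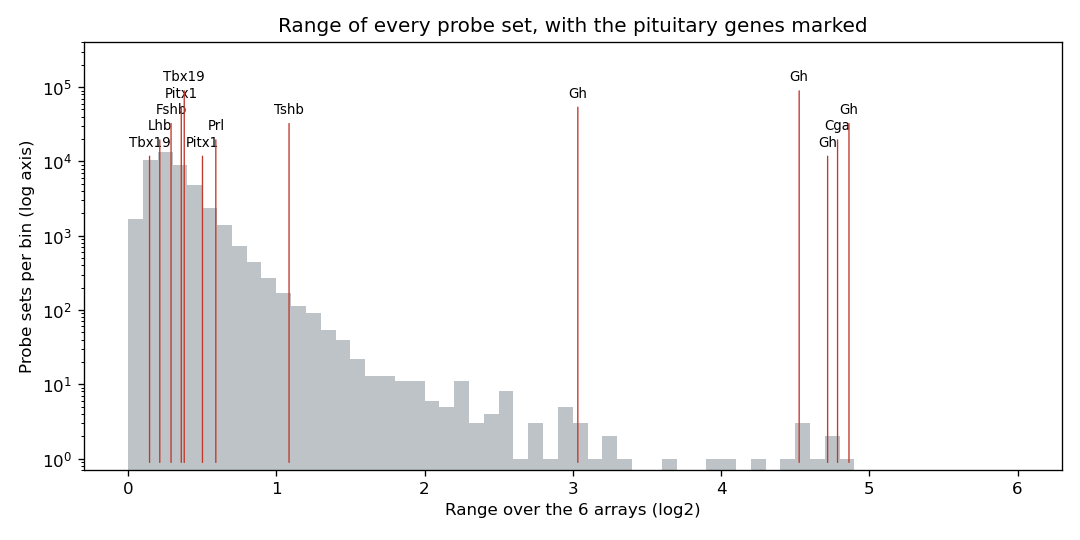
Histogram of the range over the 6 arrays (log2, x axis) for all 45037 probe sets, counted on a log y axis, with red lines at the 13 probe sets of the pituitary genes. The Gh and Cga lines stand at 3.03 to 4.86, and Tshb at 1.09.

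The group comparison asked how pituitary transcripts in the dissected tissue differed between mice with and without Dicer in cells that make Pomc. By limma with Benjamini-Hochberg adjustment, 0 of the 13 member probe sets passed the adjusted threshold of 0.05, as did 0 of all 45037 (0.0%, smallest adjusted p = 0.417), while 1098 had an unadjusted p under 0.05. The 2 groups did not overlap at 1 of the 13 probe sets, Gh 1456595_x_at, against 6.36% of all. The median log2 difference, POMCDicerKO minus control, was -0.041 over the 13 member probe sets and 0.0012 over all probe sets. Of the 13, 5 were above 0 (all sets of Gh, and Prl) and 8 below. Probe sets of the same gene are not separate members.

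**Figure D2:**
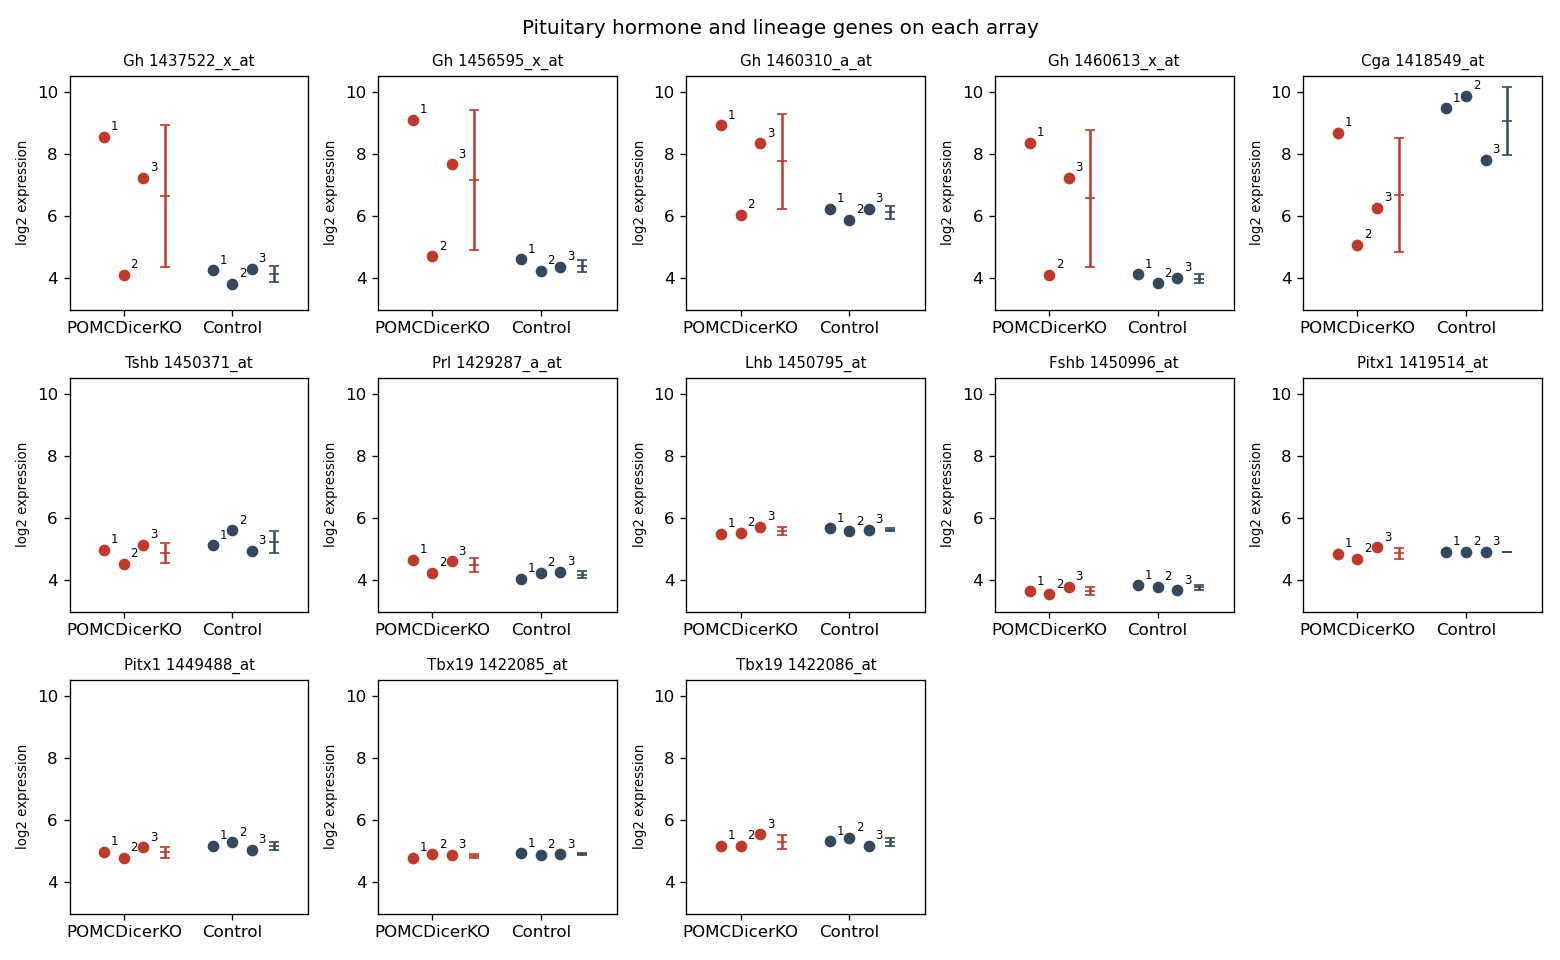
Log2 expression (y axis, the same scale in each panel) of the 13 probe sets on each array, POMCDicerKO in red and control in blue, numbered by replicate, with the mean and SD (n = 3) beside the points. The 4 Gh panels show POMCDicerKO arrays 1 and 3 far above the rest, and the Cga panel shows POMCDicerKO arrays 2 and 3 below all controls.

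Growth hormone was the member that differed most between single POMCDicerKO samples. Probe set 1456595_x_at read 9.10, 4.71 and 7.67 on POMCDicerKO arrays 1, 2 and 3, and 4.61, 4.24 and 4.37 on control arrays 1, 2 and 3. POMCDicerKO arrays 1 and 3 stood 25.9-fold and 9.58-fold above the control mean, and array 2 only 1.23-fold. The controls lay within 0.37 of each other. The mean was 7.16 ± 2.24 in POMCDicerKO and 4.41 ± 0.19 in controls (SD, n = 3 each), a log2 difference of 2.75 with a standard error of 0.94. The difference was 1.78 without POMCDicerKO replicate 1 and 3.98 without replicate 2.

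The other Gh probe sets gave the same picture with small shifts. Gh 1437522_x_at read 8.55, 4.12 and 7.24 in POMCDicerKO and 4.26, 3.83 and 4.30 in controls, a difference of 2.51 (standard error 0.96). Gh 1460613_x_at read 8.36, 4.11 and 7.24 in POMCDicerKO and 4.13, 3.84 and 4.02 in controls, a difference of 2.58 (standard error 0.92). In both, POMCDicerKO array 2 fell inside the control range. Gh 1460310_a_at had a higher floor, at 8.92, 6.04 and 8.34 in POMCDicerKO and 6.24, 5.89 and 6.24 in controls, and a smaller difference, 1.64 (standard error 0.64). Its arrays 1 and 3 stood 6.96-fold and 4.64-fold above the control mean. Without POMCDicerKO replicate 1 these 3 differences were 1.55, 1.68 and 1.07, and without replicate 2 they were 3.77, 3.81 and 2.51. The suffix _x_at marks sets whose probes may also pair with other sequences, and the 4 sets were read on the same 6 arrays, so their agreement is no replication.

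Prolactin, at a low signal, shared with Gh the order of the 3 POMCDicerKO arrays. Prl 1429287_a_at read 4.65, 4.25 and 4.61 in POMCDicerKO and 4.06, 4.24 and 4.27 in controls. The controls came in another order, with control 1 the lowest for Prl and control 2 the lowest at all 4 Gh sets. POMCDicerKO arrays 1 and 3 were the highest of the 6, as for Gh, but at only 1.38-fold and 1.34-fold above the control mean, and POMCDicerKO array 2 lay among the controls. The difference was 0.31 with a standard error of 0.12. The probe set's mean stood at the 18.9th percentile of all probe sets.

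**Figure D3:**
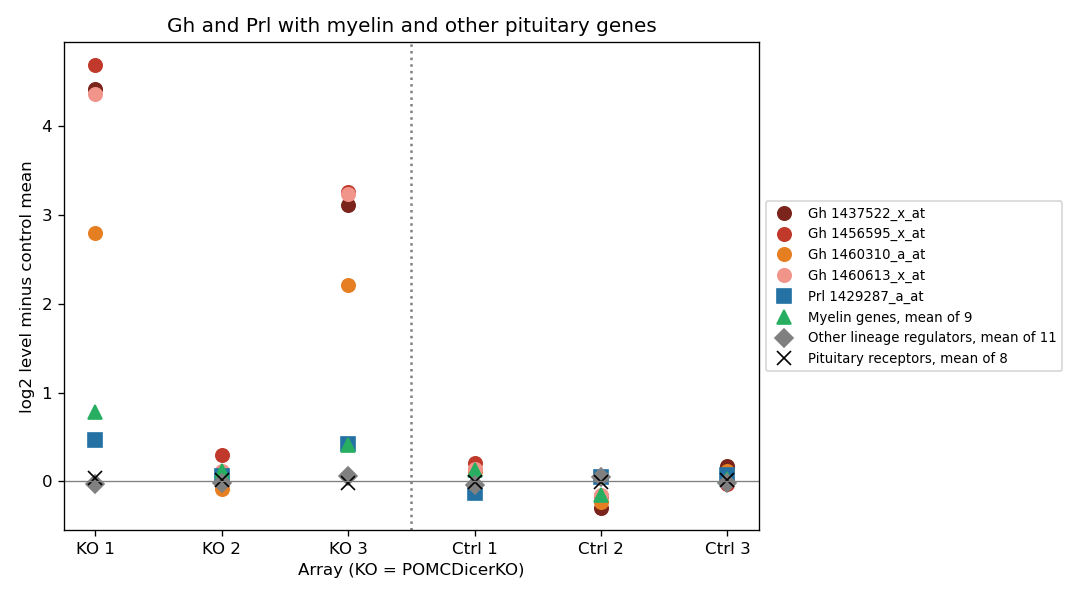
Log2 level minus the control mean (y axis) on each array (x axis) for the 4 Gh probe sets, Prl, and the means over 9 myelin genes, 11 other lineage regulators and 8 pituitary receptors. On POMCDicerKO arrays 1 and 3, Gh stood 2.22 to 4.70 above the control mean, Prl at 0.46 and 0.42, and the regulators and receptors between -0.034 and 0.058.

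Neither gonadotropin subunit had POMCDicerKO arrays 1 and 3 as its highest. Lhb 1450795_at read 5.50, 5.54 and 5.72 in POMCDicerKO and 5.67, 5.58 and 5.63 in controls, a difference of -0.041 (standard error 0.077), or 0.001 without POMCDicerKO replicate 1. Fshb 1450996_at read 3.64, 3.55 and 3.78 in POMCDicerKO and 3.84, 3.80 and 3.68 in controls, a difference of -0.11 (standard error 0.083, -0.059 without POMCDicerKO replicate 2 and -0.021 without controls 1 and 2), near the bottom of the array's scale, at its 4.69th percentile. Both had overlapping groups, with ranges of 0.21 and 0.29 over the 6 arrays.

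Cga, the alpha subunit that pairs with each glycoprotein hormone beta subunit, gave the largest negative difference among the members. It read 8.68, 5.08 and 6.27 in POMCDicerKO and 9.46, 9.87 and 7.80 in controls. POMCDicerKO array 1 lay between controls 3 and 1, so the groups overlapped, while POMCDicerKO arrays 2 and 3 were 15.6-fold and 6.83-fold below the control mean. The controls themselves spanned 2.07, or 4.19-fold. The mean was 6.68 ± 1.83 in POMCDicerKO and 9.04 ± 1.09 in controls (SD, n = 3 each), a difference of -2.37 with a standard error of 0.89. It was -1.57 without POMCDicerKO replicate 2. Controls 1 and 2 had the highest Cga as well as the most meningeal RNA. Leaving out both, a choice made after the values were seen, left control 3 alone and a difference of -1.13. The smaller difference was fixed by that choice and says nothing about meningeal tissue.

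Tshb, the thyrotropin beta subunit, varied less. It read 4.99, 4.52 and 5.15 in POMCDicerKO and 5.13, 5.61 and 4.94 in controls. As for Cga, control 2 was the highest array and POMCDicerKO array 2 the lowest, but the arrays between them came in another order: POMCDicerKO array 3 was low for Cga and next to the highest for Tshb. The difference was -0.34 with a standard error of 0.21. It was -0.16 without POMCDicerKO replicate 2, -0.15 without control 2 and -0.053 without controls 1 and 2.

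Meningeal transcripts moved with Cga. The mean of the 11 meningeal and fibroblast markers, relative to the control mean, was -0.64, -0.94 and -1.32 on POMCDicerKO arrays 1, 2 and 3, and 0.44, 0.44 and -0.89 on control arrays 1, 2 and 3. All 11 were below control on average (median difference -0.63), with 0 past the limma threshold and 6 at an unadjusted p under 0.05. Over all 18193 genes, 10028 were below control and 438 had an unadjusted limma p under 0.05. Such genes were not particular to this list: the myelin list held 6 of 9 and the arcuate list 2 of 8. Ptgds, a prostaglandin D synthase of the meninges, read 10.66, 10.12 and 8.95 in POMCDicerKO and 13.63, 13.43 and 10.58 in controls. The order of the arrays was not that of Cga throughout: Cga was lowest on POMCDicerKO array 2, and Ptgds and the meningeal mean on POMCDicerKO array 3. Cga on POMCDicerKO array 1 was above control 3 by 0.87, and Ptgds by 0.073. No marker was at the floor of the scale on all arrays, and the part of meningeal tissue in the Cga values was not tested. Tanycyte and median eminence markers averaged -0.42, -0.014 and -0.45 on the POMCDicerKO arrays, and -0.078, 0.18 and -0.11 on the controls, so they were lowest on the arrays with high Gh. Their part in the Gh values was likewise not tested.

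**Figure D4:**
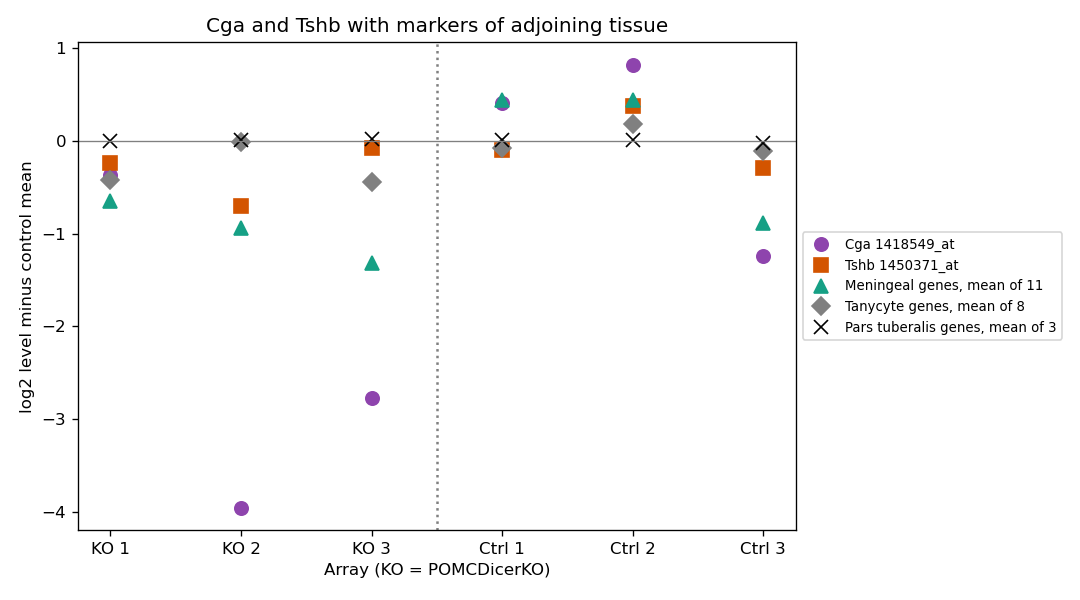
Log2 level minus the control mean (y axis) on each array (x axis) for Cga, Tshb and the means over 11 meningeal, 8 tanycyte and 3 pars tuberalis genes. Cga and the meningeal mean are highest on controls 1 and 2, and Cga falls to -3.96 on POMCDicerKO array 2, where the tanycyte mean is -0.014.

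The transcription factors of the lineage had differences of -0.21 to -0.011, and 3 of their 4 probe sets ranged more over the arrays (0.36 to 0.50) than the median of all probe sets (0.28). Pitx1 1419514_at read 4.86, 4.70 and 5.06 in POMCDicerKO and 4.92, 4.92 and 4.93 in controls, a difference of -0.049 (standard error 0.095). Pitx1 1449488_at read 4.97, 4.79 and 5.13 in POMCDicerKO and 5.17, 5.29 and 5.05 in controls, a difference of -0.21 (standard error 0.10). Without POMCDicerKO replicate 2 these were 0.036 and -0.12, and the second was -0.09 without controls 1 and 2. Tbx19 1422085_at read 4.79, 4.90 and 4.88 in POMCDicerKO and 4.93, 4.89 and 4.91 in controls, a difference of -0.05 (standard error 0.064). Tbx19 1422086_at read 5.17, 5.17 and 5.55 in POMCDicerKO and 5.32, 5.43 and 5.18 in controls, a difference of -0.011 (standard error 0.12), which was 0.051 without POMCDicerKO replicate 1, 0.053 without replicate 2 and 0.049 without control 2. The groups overlapped at all 4 probe sets, and at none were POMCDicerKO arrays 1 and 3 both above the other 4 arrays. POMCDicerKO array 2 was the lowest of the 6 for 6 of the 13 member probe sets (Cga, Tshb, Fshb, both sets of Pitx1 and Tbx19 1422086_at), against 14.5% of all probe sets, a count made after the values were seen.

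**Figure D5:**
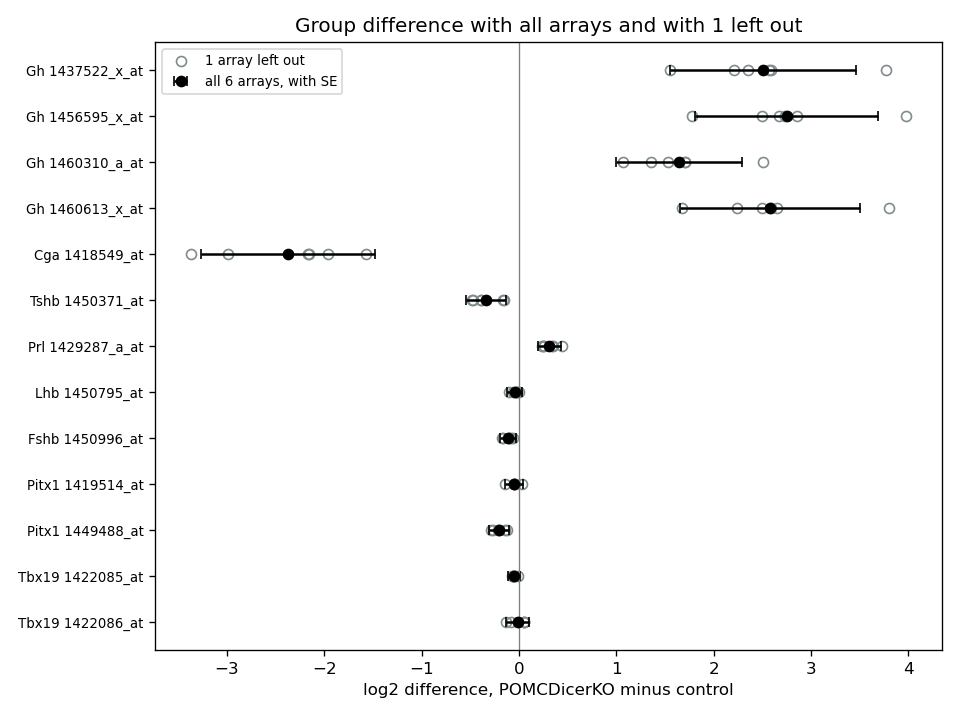
Log2 difference, POMCDicerKO minus control (x axis), of each probe set with its standard error (black) and with each array left out in turn (open circles). The Gh differences run from 1.07 to 3.98 and those of Cga from -3.37 to -1.57, while those of Lhb, Fshb, Pitx1 and Tbx19 lie between -0.29 and 0.053.

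Other genes listed for the gland, not all of them particular to it, lay near the control level on average. Of 11 further transcription factors of pituitary development, 5 were above and 6 below control, with a median difference of -0.022 and 0 past the limma threshold in each direction. Lhx4, needed for growth of the anterior lobe, was at 0.076, and Foxl2, of gonadotrophs and thyrotrophs, at 0.089 (-0.013 without POMCDicerKO replicate 3). Averaged over the 11 and relative to the control mean, the values were -0.034, -0.016 and 0.058 in POMCDicerKO, against -0.039, 0.051 and -0.012 in controls. The 8 receptors through which hypothalamic signals reach pituitary cells had a median of -0.002, 3 above and 5 below, again with 0 past the threshold. Gnrhr, the gonadotropin-releasing hormone receptor, was at 0.085, and Sstr2, a somatostatin receptor also present in neurons, at 0.11. Gnrhr was at 0.039 without POMCDicerKO replicate 3 and -0.045 with its probe sets averaged, and Sstr2 at 0.029 without control 2 and 0.052 without POMCDicerKO replicate 2. The 3 measured pars tuberalis genes besides Cga and Tshb had a median of 0.028, with the melatonin receptor Mtnr1a at -0.017 and the transcriptional coactivator Eya3 at 0.028, and 0 passed. The median over 18193 genes was -0.0099. Levels differed between these genes. Gnrhr read below the lower quartile of all values, 4.60, on every array, and Lhx4 and Mtnr1a below the median of all values, 6.03. Foxl2, Sstr2 and Eya3 read above that median. So did Nr5a1, between 7.30 and 7.63, which is also on the list of neighbouring nuclei. A difference near 0 at a low level, or at a gene also expressed outside the gland, cannot show whether RNA of the gland varied.

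The signals above and below the gland also gave no call. Of 9 measured hypothalamic factors that act on the pituitary, 2 were above and 7 below control (median -0.058), and 0 passed. Slc6a3, the transporter of dopamine, which restrains prolactin release, was at -0.37 with a standard error of 0.084 (limma adjusted p = 1). Trh, which stimulates thyrotropin release, was at 0.16, but at -0.003 without control 2. Ghrh, which drives growth hormone release, read 7.71, 8.80 and 8.41 in POMCDicerKO and 8.11, 9.01 and 8.15 in controls, and was lowest on the array with the highest Gh. Of 9 measured receptors and response genes of pituitary hormones, 1 was above and 8 were below (median -0.056), and 0 passed. Ghr, the growth hormone receptor, was at -0.19, and Tshr, the thyrotropin receptor, at -0.18. Without POMCDicerKO replicate 1 they were at -0.02 and -0.099, without control 2 at -0.11 and -0.12, and with a gene's probe sets averaged Tshr was at -0.045.

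Pomc, itself a pituitary hormone precursor and an arcuate gene, read 9.35, 9.71 and 9.43 in POMCDicerKO and 9.94, 10.87 and 9.76 in controls at 1433800_a_at, and it was not higher on the arrays with high Gh. The difference was -0.69 with a standard error of 0.27 (limma adjusted p = 1), but -0.35 without control 2 and -0.26 without controls 1 and 2. The other Pomc probe set, 1455858_x_at, read 8.82, 9.40 and 8.89 in POMCDicerKO and 9.63, 10.12 and 9.36 in controls, so the groups overlapped there. Its difference was -0.665 (standard error 0.216), -0.457 without control 2 and -0.319 without controls 1 and 2. Dicer1 was at 0.018 at 1460571_at and at 0.09 at 1427941_at (0.011 without POMCDicerKO replicate 3). Neither value checks the genotype, since the share of Pomc-expressing cells in the tissue was not measured. The 8 measured arcuate markers averaged -0.63, -0.11 and -0.31 on the POMCDicerKO arrays, and -0.19, 0.27 and -0.077 on the controls. All 8 were below control (median -0.30), with 0 past the threshold. Of the other markers a dissection could carry, 5 blood cell genes had a median of -0.15, 8 choroid plexus genes -0.12, 6 endothelial and pericyte genes 0.088 and 6 genes of neighbouring nuclei 0.011, each with 0 past the threshold. A median can hide variation between single arrays. The choroid plexus gene Ttr read 10.22, 11.41 and 7.20 in POMCDicerKO and 10.99, 9.10 and 9.87 in controls, a range of 4.21. Among the genes of neighbouring nuclei, Hcrt was at 0.56 (-0.21 without POMCDicerKO replicate 1) and Oxt, the oxytocin precursor, at -0.37 (-0.025 without POMCDicerKO replicate 1 and -0.067 without control 1).

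The genes nearest to Gh in profile still stood well away from it. Likeness was measured as the root mean square difference between log2 profiles centred on their means, over the 6 arrays, against Gh 1456595_x_at, whose own profile had a root mean square of 1.89. The 10 nearest genes were Hcrt, Bub1b, Tfg, Mal, Mog, Mobp, Opalin, Ermn, Nipal4 and Pdlim2, at 1.41 to 1.55. Hcrt, the orexin precursor of lateral hypothalamic neurons, read 10.72, 8.20 and 8.62 in POMCDicerKO and 8.60, 7.78 and 9.48 in controls. Mal, Mog, Mobp, Opalin and Ermn are genes of myelinating oligodendrocytes, and Mal 1432558_a_at read 10.37, 9.60 and 10.30 in POMCDicerKO and 9.63, 9.16 and 9.56 in controls. Over 9 measured myelin genes, a list added after the data were seen, the mean relative to control was 0.78, 0.12 and 0.41 on POMCDicerKO arrays 1, 2 and 3, and 0.13, -0.15 and 0.022 on the controls, with 0 past the limma threshold. Mal, Mog, Mobp, Opalin and Ermn, picked by the search for likeness to Gh, are on this list. For these picked genes, the order of POMCDicerKO arrays shared with Gh, with far smaller steps, was largely fixed by that choice. The other measured genes of the list, Mag, Mbp, Cnp and Cldn11, were not among the 10 nearest but had the same order. On POMCDicerKO arrays 1, 2 and 3, Cldn11 read 10.77, 10.15 and 10.27, and Mbp read 14.09, 13.94 and 13.97. The part of myelin genes in the Gh values was not tested.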

How the data were processed

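The authors deposited log2 values for each probe set on each array. RMA and affy are named in the submitters' processing notes, without versions. RMA corrects background, normalises arrays by quantiles and summarises probes, so shifts shared by most transcripts are removed. The 6 array medians lay between 6.01 and 6.05, and no unused sample column was present (0). Precision is limited by the number of arrays. After 64 control probe sets were left out, 45037 were tested. The probe gene table gave 1 symbol to 34945, several to 932 and did not list 9160; 34741 of the single symbols had their Entrez identifier in the RefSeq table of GRCm38.p6, used to update names and place genes on chromosomes.

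The groups were compared with limma 3.58.1 (lmFit, eBayes) in R 4.3.3 over all probe sets, with Benjamini-Hochberg adjustment. Standard errors are limma's. Members and lists were chosen with earlier results of these data known, and the myelin list after the present values. For a list gene, the probe set of highest mean was taken. The naming rule took all member probe sets, Pomc, Dicer1 and the 10 genes nearest to the widest-ranging member. It also took up to 4 genes per list with the smallest p, of which only some are described. Ghrh, Npy, Tac2, Ttr, Rps9, Mag, Mbp, Cnp and Cldn11 were named outside the rule. The searches for genes nearest to Cga and Tshb were also outside it. The labels do not state that replicate numbers pair the samples, and the main fit took them as unpaired. The design text calls the samples independent without saying whether each is a separate animal, so p-values measure only the spread between them. Alternatives were other scalings, priors, filters, a replicate block and leaving out arrays.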

Additional observations from a re-analysis of the deposited data

How the results depend on the processing

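Among the members, Gh, Cga, Prl, Tshb, Fshb, Pitx1 1449488_at and Tbx19 1422085_at kept their sign under all alternatives run. Signs turned for Pitx1 1419514_at without POMCDicerKO replicate 2 (0.036), Lhb without POMCDicerKO replicate 1 (0.001) and Tbx19 1422086_at without POMCDicerKO replicate 1 (0.051) or 2 (0.053), control 2 (0.049) or controls 1 and 2 (0.12). The count of probe sets past the threshold (0) was 0 with each array centred, with further quantile normalisation, a mean of at least 6, no moderation, the replicate block or 1 probe set per gene. It was 1 with a trended robust prior (Rps9), between 0 and 2 with single arrays left out, and 1 without controls 1 and 2, chosen after seeing the data. The count of listed genes past the threshold (0) was between 0 and 1 with single arrays left out, the 1 being Ogn without control 3, and 0 under the other alternatives run, the replicate block among them. The count of member probe sets with separate groups (1) was between 1 and 6 with single arrays left out: 2 without POMCDicerKO replicate 1, control 1 or control 2, 5 without control 3, and 6 without POMCDicerKO replicate 2 or 3. Fewer arrays overlap less by construction.

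Among the other genes, signs turned for Foxl2 without POMCDicerKO replicate 3 (-0.013, up to 0.188 with single arrays left out), Mtnr1a without control 2 (0.029, down to -0.051), Trh without control 2 (-0.003, up to 0.383), Hcrt without POMCDicerKO replicate 1 (-0.207, up to 1.053) and Dicer1 1460571_at without POMCDicerKO replicate 3 (-0.029, up to 0.043). With a gene's probe sets averaged they turned for Gnrhr (-0.045) and Eya3 (-0.014). Without controls 1 and 2 they turned for Mtnr1a (0.052), Oxt (0.267), Hcrt (-0.292) and Dicer1 1460571_at (-0.012). The cause was not tested.

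Deviations from the group mean correlated at 0.13, 0.079 and 0.12 for same-numbered arrays, and between -0.11 and -0.018 for the others. Each array thus correlated best with its own number. The correlations were small and the labels give no pairing, so the main fit did not use the numbers as pairs, and they do not exclude one. The replicate block gave 0 calls, with 1396 probe sets at an unadjusted limma p under 0.05, against 1098 in the main fit.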

Other observations

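Cga and Tshb, both products of the pars tuberalis, had different nearest profiles by the same root mean square measure, a search made after their values were seen. For Cga, whose own profile had a root mean square of 1.71, the 10 nearest genes were Dcn (0.96), Ces1d, Ptgds, Ogn, Fmod, Efemp1, Nupr1, Slc6a20a, Lum and Col3a1 (1.24), of which Dcn, Ptgds, Ogn, Fmod, Lum and Col3a1 are on the meningeal list. Dcn, a matrix proteoglycan, read 8.05, 7.17 and 6.86 in POMCDicerKO and 9.02, 9.19 and 7.85 in controls.

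For Tshb, with a root mean square of 0.32, the nearest were Timeless (0.082), Kcnj13 (0.12), Crispld2, Cyp1b1, Zg16, Pik3ap1, Ptgis, Aebp1, P2ry13 and Gm11266 (0.16), with 0 of the meningeal list among them. Kcnj13 is on the choroid plexus list. The lists are short, so a gene on none of them may still be one of adjoining tissue. Timeless, of the replication fork and named for its fly clock relative, read 5.91, 5.56 and 5.97 in POMCDicerKO and 5.98, 6.41 and 5.90 in controls, close to Tshb array by array. A profile of small range lies near many others, so the differences for Tshb and Cga are not on a par.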
